A study of Mus musculus with 23 samples.

Results

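The killer lectin-like receptors are C-type lectin-like membrane proteins, best known from natural killer (NK) cells, and 5 of their genes are described here in mouse CD4+ T cells: Klrb1b, Klrg1, Klrd1, Klra17 and Klrk1. Every probe set annotated to a single one of these genes was taken, which gave 9 of the 34945 single-gene probe sets and 5 of 18193 genes. Klrb1b had 5 probe sets and the other members 1 each. For Klrb1b the probe set of highest mean over all arrays, the brightest, is reported unless another is named. A probe set that the annotation shares between Klrb1b and Klrb1c fell outside this choice.

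Expression was measured on 23 oligonucleotide arrays of total RNA. The cells were sorted by CD25, the interleukin-2 receptor alpha chain that marks most regulatory T cells, and CD49f, the integrin alpha 6 chain. The CD25+CD49f+ group had 4 arrays, the CD25+CD49f- group had 5, and the CD25-CD49f+ and the CD25-CD49f- groups had 7 each, every array labelled as a biological replicate. All groups were T cells labelled as female, and strain, age and any treatment were not given in the sources used here. The number of arrays limits the precision.

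Many of these receptors carry an inhibitory motif in the cytoplasmic tail, whereas others signal through adaptor proteins such as DAP12, DAP10 or the Fc receptor gamma chain. Most of their genes lie side by side in the natural killer gene complex. On T cells they are known mainly from antigen-experienced and memory cells, and KLRG1 also marks a terminally differentiated subset of regulatory T cells.

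The gates and labels were checked first. Mean log2 levels of Il2ra, which encodes CD25, were 9.60 in CD25+CD49f+, 9.69 in CD25+CD49f-, 6.84 in CD25-CD49f+ and 5.42 in CD25-CD49f- cells. Foxp3, the regulatory T cell factor, had means of 9.85, 9.79, 8.25 and 4.74 in the same order of groups. Itga6, which encodes CD49f, had means of 9.81, 9.64, 9.36 and 9.79, so its transcript did not follow the gate. All 10 measured CD4 T cell markers were above background in every group. The female label did not hold for every array: 12 arrays had Xist alone, 10 had Y-linked transcripts alone, and 1, CD25+CD49f- replicate 5, had both. Both classes were present in each group. Of the 23 arrays, 4 stood apart with a mean correlation of 0.967 to 0.981 with their own group, against at least 0.985 for the others, namely CD25+CD49f- replicate 5, CD25-CD49f+ replicate 1 and CD25-CD49f- replicates 1 and 7. In bulk samples, fewer cells of a type and less RNA per cell cannot be told apart.

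The background level used here was a log2 level of 6.20, the 95th percentile of 81 probe sets of 44 genes chosen as typical of other tissues. In each group 3 or 4 of these 44 genes had means above 6.20. The median of the 81 probe sets was 3.87 and the array medians lay between 5.18 and 5.34, so the level is a high one. A group mean at or under 6.20 is called near background, which does not mean that the transcript was absent. A fold change against such a mean rests on a level that may not come from the transcript.

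Klrb1b, Klra17 and Klrk1 had an entry in the promoter table used. The promoters of Klrb1b and Klra17 are shown because these genes were above background and had their highest means in different populations, from 250 bases before to 50 after the annotated start (RefSeq, GRCm38.p6, both on the minus strand of chromosome 6). The Klrb1b window is chr6:128826266-128826565 and the Klra17 window is chr6:129876623-129876922. Capitals mark AGGTCA, a nuclear receptor half-site that is called the ROR half-site here but is not specific to ROR receptors.
Klrb1b: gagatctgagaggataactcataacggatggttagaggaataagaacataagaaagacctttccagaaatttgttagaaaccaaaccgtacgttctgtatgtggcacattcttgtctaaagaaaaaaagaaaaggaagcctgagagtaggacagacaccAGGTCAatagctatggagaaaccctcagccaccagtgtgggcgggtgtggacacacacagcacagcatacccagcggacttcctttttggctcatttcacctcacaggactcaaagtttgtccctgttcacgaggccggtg
Klra17: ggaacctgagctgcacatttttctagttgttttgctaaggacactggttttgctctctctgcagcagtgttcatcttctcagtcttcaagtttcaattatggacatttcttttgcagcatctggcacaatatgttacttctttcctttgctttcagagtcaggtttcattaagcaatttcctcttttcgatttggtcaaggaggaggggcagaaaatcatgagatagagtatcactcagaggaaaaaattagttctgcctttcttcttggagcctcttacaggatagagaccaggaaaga
The match in Klrb1b began 91 bases before the start and was the only match there among the 4 motifs searched on both strands, namely the ROR half-site AGGTCA, the Runx motif TGTGGT, the AP-1 motif TGANTCA and the E-box CAGGTG. Of 27025 promoters of the same length, 16.0% held the ROR half-site, 16.9% the Runx motif, 7.93% the AP-1 motif and 20.03% the E-box. None of the 4 motifs was found in the Klra17 window. A match is a description of the letters and not a bound site.

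The 5 members fell into different patterns over the 4 populations. Klrb1b was above background in CD25+CD49f- cells only, and Klrg1 was highest there. Klrd1 and Klra17 were highest in CD25-CD49f- cells. Klrk1 was near background in all 4 groups.

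**Figure D1:**
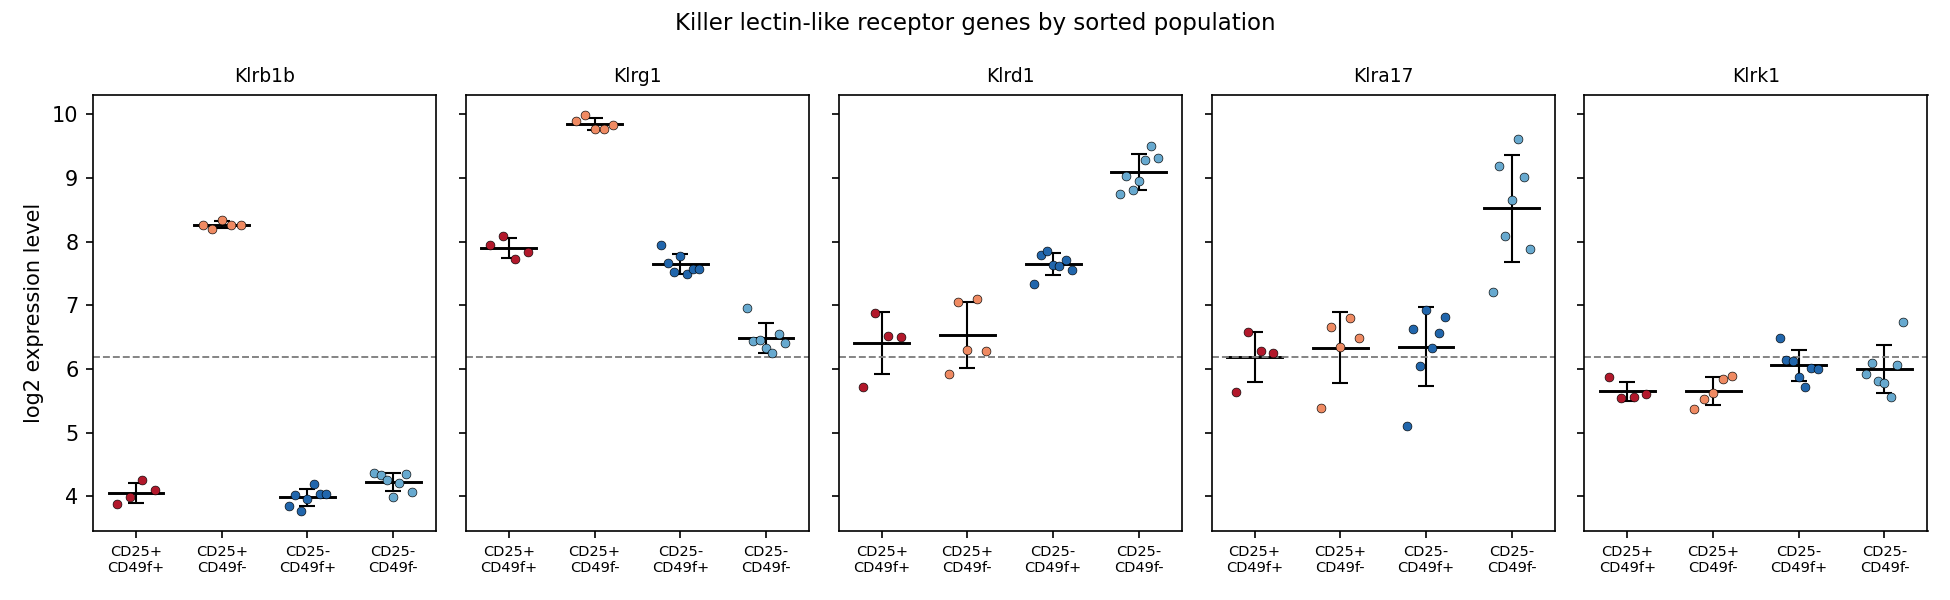
Log2 expression level (vertical axis) of each member at its main probe set in the 4 sorted populations; points are arrays, bars the mean with the SD, and the dashed line is the background level of 6.20. Klrb1b lies near 8.27 in CD25+CD49f- cells and near 4 in the other groups, and Klrk1 has all group means under the line.

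Klrb1b encodes NKR-P1B, an inhibitory receptor whose ligand is Clr-b, the product of Clec2d. Its log2 levels were 3.88, 3.99, 4.25 and 4.10 in CD25+CD49f+ cells. In CD25+CD49f- cells they were 8.26, 8.20, 8.34, 8.27 and 8.27. In CD25-CD49f+ cells they lay between 3.78 and 4.20 with a median of 4.02, and in CD25-CD49f- cells between 3.99 and 4.37 with a median of 4.25. All 5 arrays of CD25+CD49f- cells were high and none overlapped with any other group, while the other 3 groups overlapped with each other and were near background.

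The log2 difference of Klrb1b was -4.21 ± 0.10 (SE) in CD25+CD49f+ against CD25+CD49f- cells (limma, adjusted p = 2.05e-19), with levels 18.6 times higher in CD25+CD49f- cells. It was 4.04 ± 0.08 in CD25+CD49f- against CD25-CD49f- cells (adjusted p = 1.13e-20) and 4.28 ± 0.08 against CD25-CD49f+ cells (adjusted p = 5.81e-21). Because the lower groups were near background, these folds are those of the measured signals. The difference between CD25-CD49f+ and CD25-CD49f- cells, -0.24 ± 0.08, passed the threshold (adjusted p = 0.0453), but both means were near background and the call was lost in 26 of 36 alternatives. CD25+CD49f+ cells did not pass against CD25-CD49f+ (0.07, adjusted p = 0.973) or CD25-CD49f- cells (-0.17, adjusted p = 0.327).

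All 5 probe sets of Klrb1b had their highest mean in CD25+CD49f- cells and differed in level. The brightest has the suffix s and the fourth the suffix x, so both may read several related transcripts. The other Klrb1b probe sets carry neither suffix. The third brightest had means of 3.39, 7.75, 3.46 and 3.29 in CD25+CD49f+, CD25+CD49f-, CD25-CD49f+ and CD25-CD49f- cells. Its value in CD25+CD49f- replicate 5 was 6.39, against 7.91 to 8.28 in the other 4 arrays of that group. The second brightest had means of 3.97, 6.39, 4.04 and 4.14. The fourth, with 2.52, 3.41, 2.60 and 2.50, and the dimmest, with 2.44, 3.07, 2.45 and 2.57, were near background in every group. All 5 were called lower in CD25+CD49f+ against CD25+CD49f- cells, and the 2 with the largest decreases of all 45037 probe sets were the third brightest and the brightest. The probe set shared with Klrb1c had means of 6.12, 6.36, 6.20 and 6.29 and was called in none of the 7 comparisons, with adjusted p between 0.575 and 1.00.

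**Figure D2:**
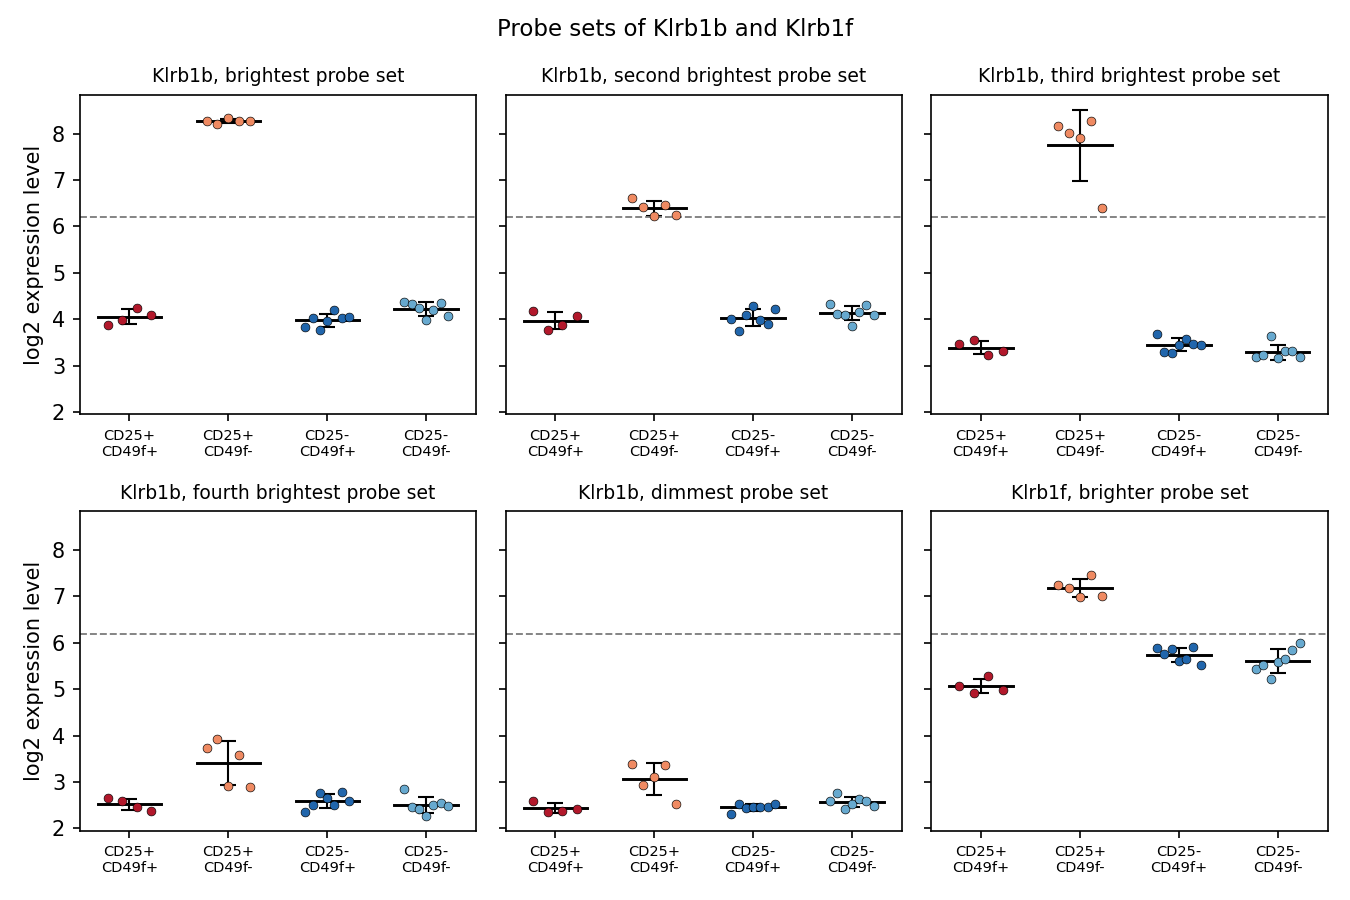
Log2 expression level (vertical axis) of the 5 Klrb1b probe sets, in order of mean level, and of the brighter Klrb1f probe set in the 4 populations; points are arrays, bars the mean with the SD, and the dashed line is the background level. In 3 Klrb1b probe sets and in Klrb1f the CD25+CD49f- group is above the line and the other groups are under it, and 2 Klrb1b probe sets are under it in all groups.

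Klrg1 encodes an inhibitory receptor for E-, N- and R-cadherin. Its levels were 7.95, 8.09, 7.74 and 7.84 in CD25+CD49f+ cells and 9.90, 9.99, 9.77, 9.77 and 9.83 in CD25+CD49f- cells. They lay between 7.49 and 7.95 with a median of 7.58 in CD25-CD49f+ cells, and between 6.26 and 6.97 with a median of 6.44 in CD25-CD49f- cells. No group overlapped with another except CD25+CD49f+ with CD25-CD49f+.

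Klrg1 was lower in CD25+CD49f+ against CD25+CD49f- cells (-1.95 ± 0.12, limma, adjusted p = 3.19e-11). Within CD25- cells the direction was the opposite, with 1.16 ± 0.09 in CD25-CD49f+ against CD25-CD49f- cells (adjusted p = 2.12e-09). The interaction, which is the CD49f difference in CD25+ cells minus that in CD25- cells, was -3.11 ± 0.15 (adjusted p = 7.99e-13). In CD25+CD49f- against CD25-CD49f- cells Klrg1 was 10.3 times higher (3.36 ± 0.10, adjusted p = 1.83e-17). It was also higher in CD25+CD49f+ against CD25-CD49f- cells (1.41 ± 0.11, adjusted p = 1.14e-09) and in CD25+CD49f- against CD25-CD49f+ cells (2.20 ± 0.10, adjusted p = 1.16e-13). CD25+CD49f+ against CD25-CD49f+ cells gave 0.25 ± 0.11 (adjusted p = 0.395). That difference was called without the 4 arrays that stood apart (0.30, adjusted p = 0.0221) and with array weights (0.28, adjusted p = 0.0178).

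Klrd1 encodes CD94, which pairs with NKG2 proteins to form receptors for the class I molecule Qa-1. It had levels of 5.72, 6.88, 6.52 and 6.51 in CD25+CD49f+ cells and 5.92, 7.05, 6.31, 7.11 and 6.29 in CD25+CD49f- cells. The CD25-CD49f+ arrays lay between 7.34 and 7.86 with a median of 7.64, and the CD25-CD49f- arrays between 8.75 and 9.499 with a median of 9.02. The 2 CD25+ groups overlapped with each other, and neither overlapped with a CD25- group.

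The CD49f difference of Klrd1 was -1.45 ± 0.18 in CD25- cells (limma, adjusted p = 2.16e-06) and -0.13 ± 0.22 in CD25+ cells (adjusted p = 1.00, 95% interval -0.59 to 0.33). Their difference was 1.32 ± 0.28 (adjusted p = 0.00644). Klrd1 was lower in CD25+CD49f- against CD25-CD49f- cells (-2.56 ± 0.19, adjusted p = 5.64e-10), in CD25+CD49f+ against CD25-CD49f- cells (-2.68 ± 0.21, adjusted p = 1.03e-09), in CD25+CD49f+ against CD25-CD49f+ cells (-1.24 ± 0.21, adjusted p = 0.000406) and in CD25+CD49f- against CD25-CD49f+ cells (-1.11 ± 0.19, adjusted p = 0.000405). Of these, the last 2 and the interaction were not called within the arrays with Xist alone, where they were -1.36, -1.18 and 1.11 (adjusted p = 0.0761, 0.122 and 0.562). Within the arrays with Y-linked transcripts alone they were -1.12, -0.92 and 1.46 (adjusted p = 0.0555, 0.0965 and 0.0807).

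Klra17 encodes Ly49Q, an inhibitory class I receptor that, unlike most Ly49 proteins, is known from plasmacytoid dendritic and myeloid cells rather than NK cells. Its levels were 5.64, 6.58, 6.28 and 6.26 in CD25+CD49f+ cells and 5.39, 6.67, 6.35, 6.81 and 6.49 in CD25+CD49f- cells. In CD25-CD49f+ cells they lay between 5.11 and 6.94 with a median of 6.57, and in CD25-CD49f- cells between 7.21 and 9.61 with a median of 8.66. Only the CD25-CD49f- arrays were apart from the rest, and the other 3 groups had means at or just above background.

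Klra17 fell by 2.17 on the log2 scale in CD25-CD49f+ against CD25-CD49f- cells (-2.17 ± 0.32, limma, adjusted p = 2.85e-05), the fourth largest decrease of all probe sets in that comparison. It was also lower than in CD25-CD49f- cells in CD25+CD49f- cells (-2.18 ± 0.35, adjusted p = 7.86e-05) and in CD25+CD49f+ cells (-2.33 ± 0.37, adjusted p = 8.37e-05). The CD49f difference in CD25+ cells was -0.15 ± 0.40 (adjusted p = 1.00, 95% interval -0.97 to 0.68), and the interaction was 2.02 ± 0.51 (adjusted p = 0.0245). The interaction was lost without CD25+CD49f+ replicate 2 (adjusted p = 0.0637), 3 (0.0535) or 4 (0.0580) and without CD25+CD49f- replicate 1 (0.0579). It was also lost within the arrays with Xist alone (0.467) and within those with Y-linked transcripts alone (0.189). Within the arrays with Xist alone, CD25+CD49f- against CD25-CD49f- (-2.36, adjusted p = 0.0511) and CD25+CD49f+ against CD25-CD49f- (-2.28, adjusted p = 0.0591) were not called either.

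In CD25-CD49f+ against CD25-CD49f- cells most plasmacytoid dendritic and myeloid cell markers were lower, as Klra17 was, and most markers of the other lists were not. Of 17 measured plasmacytoid dendritic cell markers, 0 were higher and 13 lower in CD25-CD49f+ against CD25-CD49f- cells (median -0.58, against -0.02 over all 18193 genes). The mean level of this list over its genes was 6.22 to 6.61 on CD25+CD49f+ arrays, 6.40 to 6.81 on CD25+CD49f-, 6.21 to 6.59 on CD25-CD49f+ and 6.68 to 7.56 on CD25-CD49f- arrays. Siglech, which defines these cells, had means of 5.75, 5.76, 5.73 and 7.09, near background in all groups but CD25-CD49f-. Tcf4, a transcription factor needed by these cells, had means of 5.85, 7.03, 5.94 and 7.36, and so was above background in CD25+CD49f- cells too, where Klra17 was low. In CD25+CD49f+ against CD25-CD49f- cells 3 of the 17 markers were higher and 11 lower, and in CD25+CD49f- against CD25-CD49f- cells 4 were higher and 8 lower. The CD25-CD49f- array lowest in Klra17, replicate 1 at 7.21, was also the lowest of its group for Siglech at 6.02, and the highest, replicate 5 at 9.61, was the highest at 7.89. Over the 7 arrays of that group Klra17 and Siglech had a Pearson correlation of 0.908, whereas over the 7 CD25-CD49f+ arrays, where Siglech was near background, it was 0.0031. For Klra17 and Tcf4 the values were 0.963 and 0.924 in the same order of groups. In CD25-CD49f+ cells the Tcf4 mean was near background too, and replicate 1 was lowest for both genes (Tcf4 4.31, Klra17 5.11). The other arrays of that group lay between 5.82 and 6.55 for Tcf4 and between 6.05 and 6.94 for Klra17. All these correlations are descriptions of arrays that share a sort and an array type. Of 16 measured myeloid and conventional dendritic cell markers, 0 were higher and 10 lower in CD25-CD49f+ against CD25-CD49f- cells (median -0.75). Within CD25-CD49f- cells, replicate 1 was lowest both in Klra17 and in the mean of this list, at 7.03. Replicate 7 was highest in that mean, at 8.46, with Klra17 at 7.89, below the group median. Klra17 and Itgax, a gene of this list, had correlations of 0.479 over the CD25-CD49f- and 0.561 over the CD25-CD49f+ arrays. In CD25-CD49f+ against CD25-CD49f- cells, 0 of 9 B cell markers were called higher and 0 lower. Of 7 CD8 T cell markers 3 were higher and 0 lower. Of 6 gamma delta and NKT cell markers 3 were higher and 0 lower, and of 15 NK cell markers 3 and 1. Over all genes 7.50% were higher and 4.94% lower. In CD25+CD49f- against CD25-CD49f- cells 5 of 15 NK and 2 of 7 CD8 T cell markers were lower, with the same numbers higher. There 3 of 10 CD4 T cell markers were lower and 0 higher, against 4.36% and 8.78% of all genes. In CD25+CD49f+ against CD25-CD49f- cells 4 of the NK markers were lower and 3 higher. Of the CD8 T cell markers 2 were lower and 2 higher, and of the CD4 T cell markers 2 and 1. Over all genes 5.10% were lower and 7.15% higher. The part of any of these cell types in the Klra17 result was not tested.

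**Figure D3:**
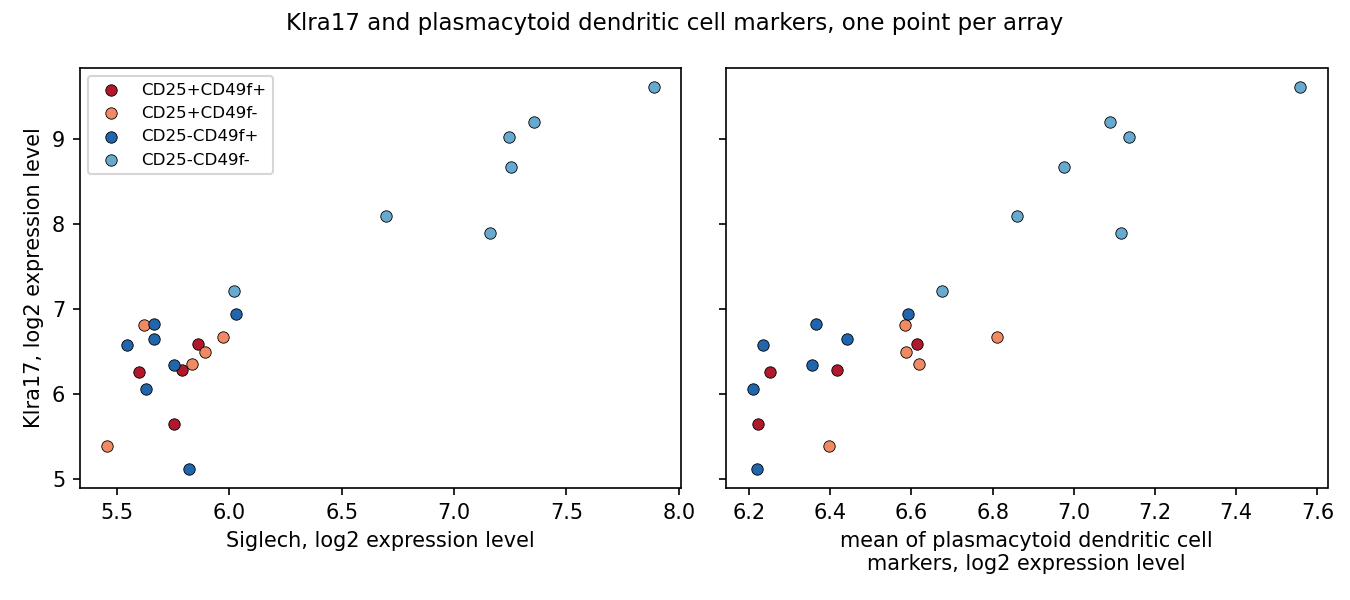
Klra17 log2 level (vertical axis) against the Siglech level (left) and the mean level of 17 plasmacytoid dendritic cell markers (right), one point per array. CD25-CD49f- arrays lie highest on the vertical axis; on the horizontal axes their means are highest, but replicate 1 of that group lies within the range of the other groups, with a Siglech level of 6.02 and a list mean of 6.68.

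The array numbered replicate 1 was the lowest of its group for both Klrd1 and Klra17 in all 4 groups. Of the 45037 probe sets, 116 (0.258%) shared that order. Over all probe sets, 12 of 29 same-number pairs deviated together with a correlation above 0.1, in a range from -0.46 to 0.52. Pairs with different numbers were not set beside them, so these values cannot decide whether the numbers pair the arrays. With the number as a random block, the correlation was -0.0071. With a fixed replicate block, the Klra17 difference in CD25-CD49f+ against CD25-CD49f- cells was still -2.17 (limma, adjusted p = 1.79e-07).

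Klrk1 encodes NKG2D, an activating receptor for stress-induced class I-like ligands. It had levels of 5.87, 5.55, 5.57 and 5.62 in CD25+CD49f+ cells and 5.37, 5.53, 5.63, 5.85 and 5.90 in CD25+CD49f- cells. In CD25-CD49f+ cells they lay between 5.72 and 6.49 with a median of 6.02, and in CD25-CD49f- cells between 5.56 and 6.75 with a median of 5.92. Every group overlapped with each of the others and all means were near background. None of the 7 comparisons was called; the largest difference was -0.41 ± 0.16 in CD25+CD49f+ against CD25-CD49f+ cells (limma, adjusted p = 0.309, 95% interval -0.75 to -0.07). CD25+CD49f- against CD25-CD49f+ cells gave -0.40 (adjusted p = 0.180), which was called with array weights (-0.35, adjusted p = 0.0416), without CD25-CD49f- replicate 7 (-0.40, adjusted p = 0.0439) and without the arrays that stood apart (-0.39, adjusted p = 0.0337).

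**Figure D4:**
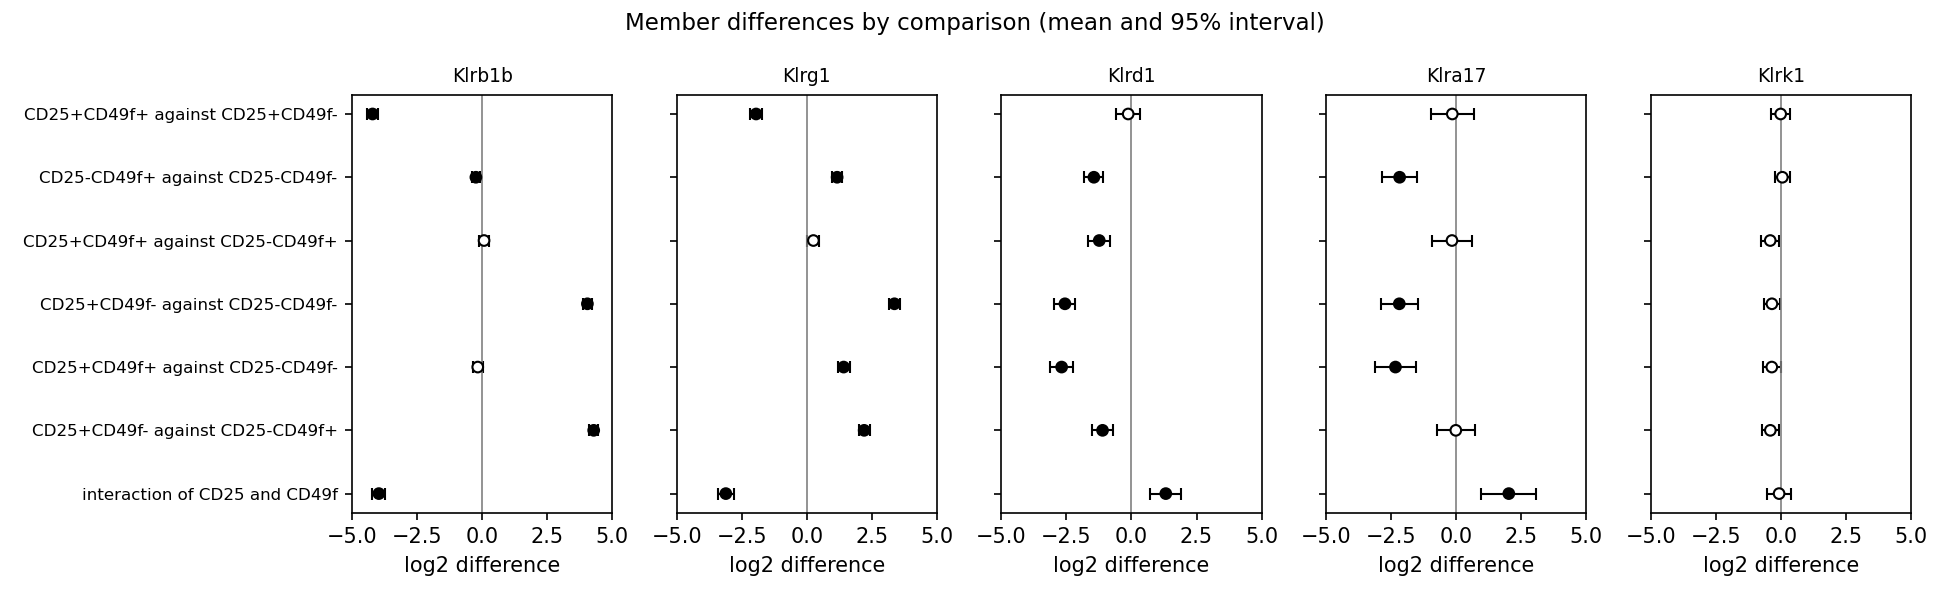
Log2 difference (horizontal axis), first-named minus second-named group, with its 95% interval for each member and comparison; filled points passed an adjusted p of 0.05 and open points did not. Klrb1b and Klrg1 are negative in CD25+CD49f+ against CD25+CD49f- cells, Klrd1 and Klra17 are negative in CD25-CD49f+ against CD25-CD49f- cells, and Klrk1 has open points throughout.

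Counts of called members are given beside the share of all 45037 probe sets called in that direction, with the share of the 18193 genes, each at its brightest probe set as for the members, in parentheses. In CD25+CD49f+ against CD25+CD49f- cells, 0 of 5 members were higher and 2 lower, against 0.198% higher (0.286%) and 0.913% lower (1.37%) of all probe sets. In CD25-CD49f+ against CD25-CD49f- cells, 1 was higher and 3 lower, against 5.45% (7.50%) and 4.38% (4.94%). In CD25+CD49f+ against CD25-CD49f+ cells, 0 were higher and 1 lower, against 1.58% (2.45%) and 1.66% (2.57%).

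In CD25+CD49f- against CD25-CD49f- cells, 2 members were higher and 2 lower, against 6.07% (8.78%) and 3.89% (4.36%) of all probe sets. In CD25+CD49f+ against CD25-CD49f- cells, 1 was higher and 2 lower, against 5.07% (7.15%) and 4.22% (5.10%). In CD25+CD49f- against CD25-CD49f+ cells, 2 were higher and 1 lower, against 3.02% (4.60%) and 2.12% (3.13%). For the interaction, 2 were positive and 2 negative, against 0.604% (0.759%) and 2.52% (3.79%). The comparisons share arrays and are not independent of each other.

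Results for Klrb1b other than its difference within CD25- cells, and for Klrg1, kept their side of the threshold within both classes of arrays and without the arrays that stood apart, except Klrg1 in CD25+CD49f+ against CD25-CD49f+ cells, as given above. Within the arrays with Xist alone, the Klrb1b difference of CD25+CD49f+ against CD25+CD49f- cells was -4.30, and within those with Y-linked transcripts alone it was -4.13. For Klrg1 the corresponding values were -1.93 and -1.99. Without the arrays that stood apart, CD25-CD49f+ against CD25-CD49f- cells gave -1.42 for Klrd1 and -2.36 for Klra17, and both remained called.

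The other Klr genes on the array numbered 13, with 17 probe sets, and 11 of them were near background in all 4 groups. Klrb1f, a close relative of Klrb1b, was also above background in CD25+CD49f- cells only, at the brighter of its 2 probe sets. There its levels were 5.07, 4.92, 5.29 and 4.99 in CD25+CD49f+ cells and lay between 6.99 and 7.46, with a median of 7.18, in CD25+CD49f- cells. Means were 5.74 in CD25-CD49f+ and 5.61 in CD25-CD49f- cells. The Klrb1f difference in CD25+CD49f+ against CD25+CD49f- cells was -2.11 ± 0.13 (limma, adjusted p = 6.40e-11), and in CD25+CD49f- against CD25-CD49f- cells 1.57 ± 0.12 (adjusted p = 3.23e-10). Unlike Klrb1b, which was called in neither, Klrb1f was also lower in CD25+CD49f+ against CD25-CD49f+ cells (-0.68 ± 0.12, adjusted p = 0.00110) and against CD25-CD49f- cells (-0.54 ± 0.12, adjusted p = 0.00413), with all 3 means near background. The dimmer Klrb1f probe set was called in neither of these (adjusted p = 0.930 and 0.955). Its means of 3.89, 4.87, 4.05 and 3.92, from CD25+CD49f+ to CD25-CD49f- in the order used above, were near background in every group.

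Klra16 had means of 5.72, 5.76, 6.61 and 6.24 in CD25+CD49f+, CD25+CD49f-, CD25-CD49f+ and CD25-CD49f- cells at its brighter probe set. Both CD25+ means were near background. There it was lower in CD25+CD49f+ against CD25-CD49f+ cells (-0.90 ± 0.21, limma, adjusted p = 0.0149) and in CD25+CD49f- against CD25-CD49f+ cells (-0.85 ± 0.20, adjusted p = 0.00869). The dimmer probe set, with means of 2.57, 2.67, 2.97 and 2.79, was called in the first comparison (-0.40, adjusted p = 0.0317). It was not called in the second (-0.30, adjusted p = 0.0901). Klrc1, which encodes the NKG2A partner of CD94, had means of 3.56, 3.83, 4.40 and 4.30 at its brighter probe set, all near background. Its calls in CD25+CD49f+ against CD25-CD49f+ cells (-0.83 ± 0.22, adjusted p = 0.0284) and against CD25-CD49f- cells (-0.74 ± 0.22, adjusted p = 0.0292) therefore rest on low signals. The dimmer Klrc1 probe set was called in neither (adjusted p = 0.992 and 0.730). Klrc2 and Klrc3, the other NKG2 genes measured, had group means between 2.94 and 3.26. The Ly49 genes overlap in sequence, so probe sets with the suffix x, including both of Klra16, may read more than 1 of them.

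Position was examined over the natural killer gene complex, from Klrb1a to Klra1 in RefSeq order. It held 76 genes, of which 31 were measured, 4 of them members. Of the other 27, 19 were near background in every group. In CD25+CD49f+ against CD25+CD49f- cells, 1 of the 27, Klrb1f, was called lower and 0 higher, against 1.37% and 0.286% of all genes. In CD25+CD49f- against CD25-CD49f- cells, 4 were called higher and 1 lower, against 8.78% and 4.36%. The 4 were Klrb1f, Cd69, Gabarapl1 and BC064078. Clec2d, which lies near Klrb1b and Klrb1f and encodes the Klrb1b ligand, had means of 9.79, 9.70, 9.38 and 9.26. The difference of Clec2d between CD25+CD49f+ and CD25-CD49f- cells was 0.53 ± 0.16 (adjusted p = 0.0427), and no other comparison of it was called. Cd69 and Gabarapl1, picked after their values were seen, are neighbours with other patterns: Cd69 had means of 9.72, 9.77, 9.97 and 8.88, and Gabarapl1 of 7.84, 7.79, 7.37 and 6.63.

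**Figure D5:**
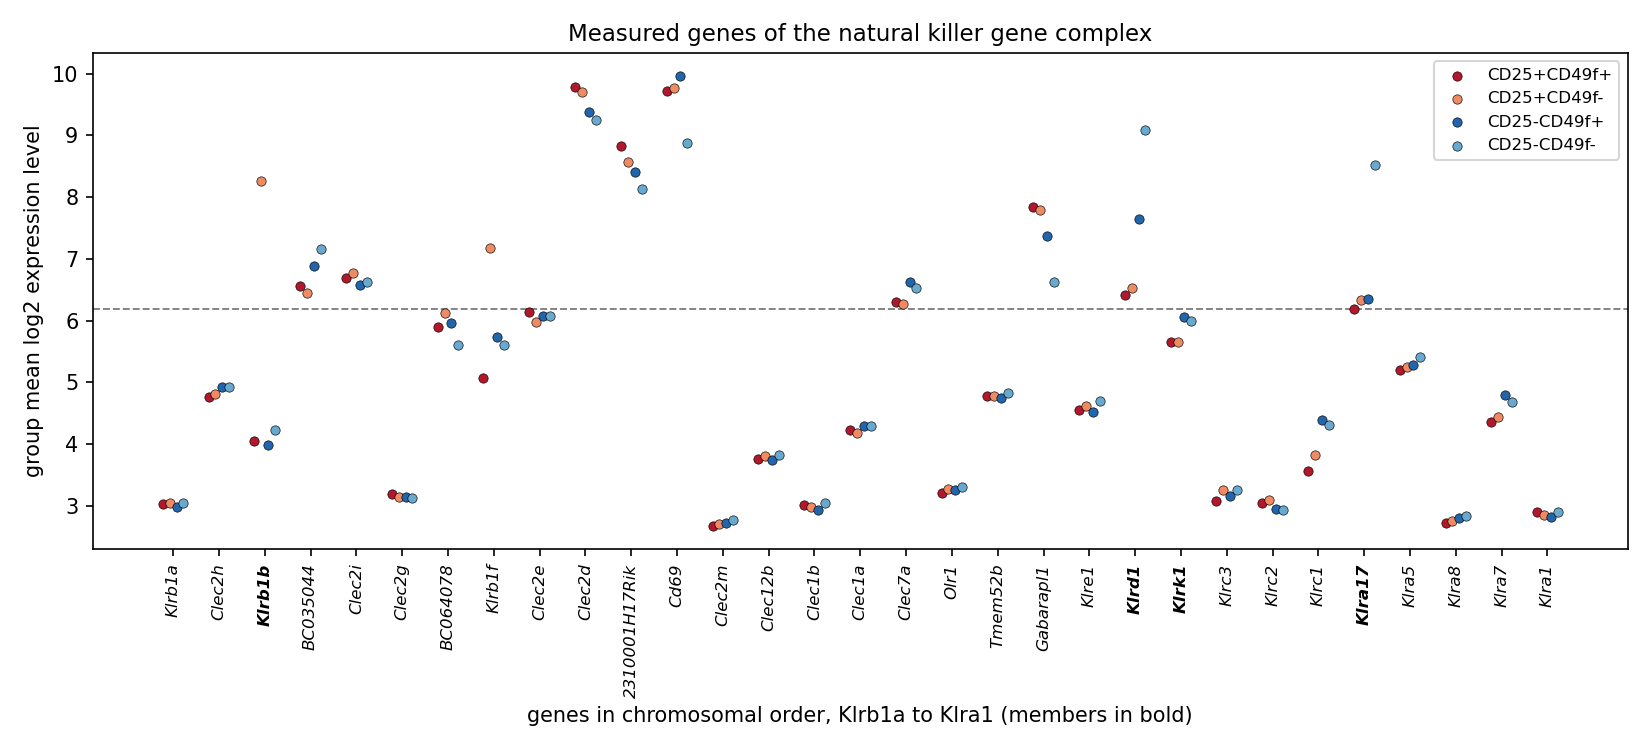
Group mean log2 level (vertical axis) of the 31 measured genes between Klrb1a and Klra1 in chromosomal order, with members in bold; the dashed line is the background level. Klrb1b and Klrb1f are above the line in CD25+CD49f- cells only, and Klrd1 and Klra17 are highest in CD25-CD49f- cells.

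Adaptors and signalling partners were measured as a list of 11 genes. Fcer1g, the Fc receptor gamma chain used by activating NKR-P1 receptors, had means of 6.22, 8.20, 6.61 and 7.29 in CD25+CD49f+, CD25+CD49f-, CD25-CD49f+ and CD25-CD49f- cells. It was lower in CD25+CD49f+ against CD25+CD49f- cells (-1.98 ± 0.30, limma, adjusted p = 0.000308), the only 1 of the 11 called there. Of all genes, 0.286% were higher and 1.37% lower in that comparison. Tyrobp, which encodes DAP12, had means of 7.43, 8.01, 7.93 and 9.37. Tyrobp was lower in CD25-CD49f+ against CD25-CD49f- cells (-1.44 ± 0.23, adjusted p = 6.61e-05). There 1 of the 11 was higher and 2 were lower, against 7.50% and 4.94% of all genes. Hcst, which encodes the NKG2D adaptor DAP10, had means of 8.29, 8.52, 8.88 and 8.92 and was lower in CD25+CD49f+ against CD25-CD49f- cells (-0.63 ± 0.17, adjusted p = 0.0137). In that comparison 0 of the 11 were higher and 5 lower, against 7.15% and 5.10% of all genes (median -0.21, against 0.00 over all genes).

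Ligands were measured as a list of 10 genes, of which 4 were above background in each group. In CD25+CD49f+ against CD25+CD49f- cells 0 were higher and 1 lower, against 0.286% and 1.37% of all genes. The called gene was Cdh2, which encodes N-cadherin (means of 3.93, 4.82, 3.96 and 3.95, near background). Cdh1, which encodes E-cadherin and so a Klrg1 ligand, had means of 3.50, 3.57, 4.18 and 4.91, also near background. Its difference in CD25-CD49f+ against CD25-CD49f- cells was -0.73 ± 0.22 (limma, adjusted p = 0.0341).

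NK and unconventional T cell markers were set beside the members. Of 15 NK cell markers, 0 were higher and 3 lower in CD25+CD49f+ against CD25+CD49f- cells (Cd160, Eomes and Fasl). Of all genes, 0.286% were higher and 1.37% lower there. In CD25+CD49f- against CD25-CD49f- cells 5 of the 15 were higher and 5 lower (median -0.30), against 8.78% and 4.36% of all genes. Mean levels of this list were 6.14 to 6.43, 6.43 to 6.75, 6.58 to 6.78 and 6.36 to 6.77 on the arrays of the 4 groups, from CD25+CD49f+ to CD25-CD49f- in the order used above. Ncr1, the defining NK cell receptor, was near background in all groups, with means of 5.32, 5.71, 5.37 and 5.37. Of 6 gamma delta and NKT cell markers, 0 were higher and 3 lower in CD25+CD49f+ against CD25+CD49f- cells. In CD25+CD49f- against CD25-CD49f- cells 4 of the 6 were higher and 0 lower. Mean levels of these 6 were 6.45 to 6.69 on CD25+CD49f+, 7.06 to 7.26 on CD25+CD49f-, 6.61 to 7.06 on CD25-CD49f+ and 5.999 to 6.37 on CD25-CD49f- arrays. Zbtb16, the factor that defines innate-like T cells, had means of 5.77, 6.49, 6.58 and 5.998. Their part in the Klrb1b and Klrg1 results was not tested.

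The genes most like each member were found by Pearson correlation over the 23 arrays, as a description in which arrays of a group share their level. Klrb1b was most like Kcnk1 (0.991), Tmem176a (0.989), Abi3bp (0.986), Pxdc1 (0.986) and Fam184b (0.985). Klrg1 was most like Arnt2 (0.960), the chemokine receptor gene Ccr6 (0.951), the chemokine gene Ccl1 (0.949), Cd160 (0.936) and Fah (0.934).

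For Klrd1 the nearest were Fam78a (0.953), Cnga1 (0.952), Pdlim4 (0.951), Mctp2 (0.947) and Tdrp (0.947). For Klra17 they were Mpeg1 (0.9818), the cathepsin gene Ctsh (0.969), Ly86 (0.964), the cyclin gene Ccnd1 (0.963) and Themis2 (0.948). Mpeg1 is also in the list used above for plasmacytoid dendritic cells, so its correlation is not separate from the result of that list. For Klrk1 the nearest reached only 0.810 (Cylc2), 0.798 (Epb41l3), 0.797 (Tgfb3 and Grid1) and 0.795 (Slc22a13).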

How the data were processed

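The authors deposited log2 expression values made with RMA, per the submitters' processing notes. The deposited table held 45101 rows for 23 arrays, with array medians between 5.18 and 5.34. The 64 control rows were left out and no further scaling was applied. Through the array annotation 34945 probe sets had 1 gene, 932 several and 9160 none, and 34741 matched RefSeq genes (GRCm38.p6).

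The 4 groups entered a single limma 3.58.1 fit (R 4.3.3; lmFit, eBayes) over 45037 probe sets, tested on simulated data, with Benjamini-Hochberg adjustment and calls at an adjusted p under 0.05. Figures used Python 3.11.15 and matplotlib 3.10.9. Arrays were scored for Y-linked transcripts and Xist at log2 thresholds of 6 and 8.

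The members and lists were chosen with earlier results of these data known. The text names the members, the 5 nearest genes of each, up to 4 called genes per list and comparison, called Klr genes and gate checks, with exceptions stated. The reported fit did not pair arrays by replicate number. Alternatives covered each array left out in turn, a replicate block, array weights, other variance shrinkage and scaling, brighter probe sets, the compared groups alone and a stricter threshold. Omitting the arrays that stood apart, adjusting for Y-linked transcripts, and fitting each class of arrays alone were chosen after seeing the data.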

Additional observations from a re-analysis of the deposited data

Results flagged for a closer look

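Among 40 tests of arrays within a group, 4 had an array far from the others, and such tests flag some groups by chance. For the third brightest Klrb1b probe set, CD25+CD49f- replicate 5 was at 6.39, with the nearest array of its group at 7.91, and CD25-CD49f- replicate 3 was at 3.63, with the nearest at 3.33. For the dimmest Klrb1b probe set, CD25-CD49f+ replicate 1 was at 2.31, with the nearest at 2.43, both near background. For Klrg1, CD25-CD49f- replicate 1 was at 6.97, with the nearest at 6.55. CD25+CD49f- replicate 5, CD25-CD49f+ replicate 1 and CD25-CD49f- replicate 1 were also among the 4 arrays that stood apart.

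The CD49f difference differed between CD25+ and CD25- cells, by the interaction term in limma, for Klrb1b (-3.97), Klrg1 (-3.11), Klrd1 (1.32) and Klra17 (2.02). The call was lost in 7 of 36 alternatives for Klra17 and in 2 of 36 for Klrd1. For Klrb1b and Klrg1 it was kept in every alternative.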

How the results depend on the processing

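Over 37 alternatives, 23 of which left out 1 array, 1283 values of the member differences were recomputed. Of these, 1207 kept their direction and side of the threshold, 41 lost their call, 5 gained one and 30 changed sign, all of the last between uncalled values. The count of called members in CD25+CD49f+ against CD25-CD49f+ cells, 1 in the reported fit, was 2 with array weights, 2 without the arrays that stood apart, 0 in the arrays with Xist alone and 0 in those with Y-linked transcripts alone. The count for CD25+CD49f+ against CD25+CD49f- cells, 2 as reported, was 1 among the brighter probe sets, where Klrb1b was not included. The interaction count, 4 as reported, was 2 in the arrays with Xist alone and 2 in those with Y-linked transcripts alone. Leaving out 1 array gave counts of 2 in CD25+CD49f+ against CD25+CD49f-, 3 to 4 in CD25-CD49f+ against CD25-CD49f-, 3 to 4 in CD25+CD49f- against CD25-CD49f+ and 3 to 4 for the interaction.

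With a replicate block, Klra17 gave 0.00485 in CD25+CD49f+ against CD25-CD49f+ and 0.0415 in CD25+CD49f- against CD25-CD49f+ cells, and the Klrb1b difference in CD25- cells was lost (adjusted p = 0.0816); the block changed no other member's call. Klra17 in CD25+CD49f- against CD25-CD49f+ cells was 0.0168 with quantile scaling and 0.00113 in the arrays with Y-linked transcripts alone, and in CD25+CD49f+ against CD25+CD49f- cells 0.0868 in those with Xist alone. Klrk1 in CD25+CD49f+ against CD25+CD49f- cells was 0.0207 with array weights, 0.0556 without the arrays that stood apart, 0.00943 with the Y-linked covariate and 0.26 in the arrays with Xist alone. In the arrays with Y-linked transcripts alone, Klrk1 was -0.39 in CD25-CD49f+ against CD25-CD49f- cells and 0.24 for the interaction.

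Leaving out 1 array gave Klrk1 values of -0.0129 to 0.19 in CD25-CD49f+ against CD25-CD49f-, -0.0784 to 0.0556 in CD25+CD49f+ against CD25+CD49f- and -0.19 to 0.00836 for the interaction. It gave Klra17 values between -0.22 and 0.22 in CD25+CD49f- against CD25-CD49f+, -0.38 and 0.0347 in CD25+CD49f+ against CD25+CD49f- and -0.37 and 0.0220 in CD25+CD49f+ against CD25-CD49f+, and Klrd1 values between -0.28 and 0.10 in CD25+CD49f+ against CD25+CD49f- cells. The cause of these changes was not tested. Levels near background limit what can be read from Klrk1 and from the lower groups of Klrb1b. Levels at or little above background also limit Klra17, with means of 6.19, 6.34 and 6.35 in all groups but CD25-CD49f-. The same holds for Klrd1 in the CD25+ groups, with 6.41 and 6.53. The interactions of both genes rest on these means, and the effect of the background on them was not tested.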
